A study of Mus musculus with 6 samples.

Results

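The 10 genes described here encode transcription factors of the development and identity of group 2 innate lymphoid cells (ILC2s), namely Gata3, Rora, Id2, Gfi1, Bcl11b, Tcf7, Ets1, Nfil3, Tox and Zbtb16. They were taken as a list of names, and the rule that gives the list uses no measured value. The list was, however, chosen with earlier results of these data known. All 10 were found among the 14416 genes of the deposited count table, and all 10 passed the filter on low counts that left 11382 genes, so no member was lost. RNA was measured by Smart-seq2 in Lin-Thy1.2+ ILCs that had been sorted out of C57BL/6J lung, with 3 wild-type (WT) libraries and 3 knockout libraries (RBM3KO) for Rbm3, the gene of a cold-inducible RNA-binding protein. The mice of both genotypes had received 25 µg of Alternaria alternata, a mould allergen of the airways, 3 times over 7 days, and no unchallenged group is analysed here. The sources used here do not give the ages of the mice, the construction of the knockout allele, or whether replicates were separate animals or pools. A p-value therefore reflects the variation among these samples alone, and that variation may be technical. The gate takes all Lin-Thy1.2+ ILCs and is not limited to ILC2s. In bulk RNA, fewer cells of a type and less RNA per cell cannot be told apart.

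ILC2s are tissue lymphocytes that answer alarm cytokines such as IL-33 with type 2 cytokines. In their development, NFIL3, TOX, TCF-1 (the product of Tcf7), ETS1 and ID2 act early, from the shared progenitor on, and PLZF (the product of Zbtb16) marks a precursor stage and is low in mature ILC2s. GATA3, RORα, GFI1 and BCL11B then establish and hold the ILC2 state, and ID2 acts by binding E proteins and keeping them from DNA.

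Promoter sequences are shown for Gfi1, whose estimate lay farthest from 0 among the 10 genes. They are also shown for Id2 and Rora, which lay on the other side with no overlap between the genotypes. Ets1 and Tox did so too, but no promoter entry was available for them or for Zbtb16. E proteins bind the E-box CANNTG, and its matches are in capitals. The entries are RefSeq promoters on GRCm38.p6, the build also called mm10, each running from 250 bases before a start site to 50 after it. Gfi1 has 2 start sites in the table, at chr5:107725756-107726055 and chr5:107724294-107724593, both on the minus strand. Id2 is at chr12:25096043-25096342 on the minus strand and Rora at chr9:68653536-68653835 on the plus strand.
Gfi1 start site 1: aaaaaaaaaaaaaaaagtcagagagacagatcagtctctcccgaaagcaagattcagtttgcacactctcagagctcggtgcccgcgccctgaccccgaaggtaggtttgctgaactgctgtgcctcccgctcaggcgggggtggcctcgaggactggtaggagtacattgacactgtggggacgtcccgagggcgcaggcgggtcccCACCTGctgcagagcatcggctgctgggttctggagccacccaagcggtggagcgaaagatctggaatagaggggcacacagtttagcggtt
Gfi1 start site 2: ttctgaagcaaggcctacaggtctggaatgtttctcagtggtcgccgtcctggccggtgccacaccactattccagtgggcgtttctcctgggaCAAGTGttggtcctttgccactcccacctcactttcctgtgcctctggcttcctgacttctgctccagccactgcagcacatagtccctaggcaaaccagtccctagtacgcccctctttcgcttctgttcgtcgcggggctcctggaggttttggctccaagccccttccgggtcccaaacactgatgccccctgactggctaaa
Id2: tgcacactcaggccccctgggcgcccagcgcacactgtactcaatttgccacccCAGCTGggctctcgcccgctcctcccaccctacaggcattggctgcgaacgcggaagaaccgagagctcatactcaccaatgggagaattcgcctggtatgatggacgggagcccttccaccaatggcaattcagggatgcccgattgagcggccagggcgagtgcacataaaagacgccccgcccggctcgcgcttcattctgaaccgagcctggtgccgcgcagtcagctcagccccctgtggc
Rora: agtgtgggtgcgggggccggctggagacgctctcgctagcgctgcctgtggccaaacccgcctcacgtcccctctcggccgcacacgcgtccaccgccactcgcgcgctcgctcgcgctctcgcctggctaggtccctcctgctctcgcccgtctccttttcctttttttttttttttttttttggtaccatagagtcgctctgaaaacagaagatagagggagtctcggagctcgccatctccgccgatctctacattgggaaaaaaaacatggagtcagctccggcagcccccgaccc
The 2 Gfi1 windows hold 1 E-box each, CACCTG beginning 42 bases before the first start site and CAAGTG beginning 156 bases before the second. The Id2 window holds 1, CAGCTG beginning 196 bases before the start, and the Rora window holds none. Of all 32851 promoters of this length, 72.3% held an E-box, so a match is common. For the GFI1 core AATC, read on both strands, 1 match stood in the first Gfi1 window, 1 in the Id2 window and none in the second Gfi1 window or in Rora, against 73.1% of all promoters with a match. The GATA factor motif AGATAA, searched on both strands, matched none of the 9 entries of the 7 members with a promoter in the table, against 11.2% of all promoters. The ETS motif GGAAG had 2 matches in the second Gfi1 window, 2 in Id2 and 0 in the other printed windows, against 71.4% of all promoters. The ROR (AGGTCA), TCF/LEF (CTTTGA) and NFIL3 (TTANNTAA) motifs had 0 matches in the printed windows. Of all promoters, 16.3%, 16.0% and 6.00% held them. Matches of different motifs could overlap, and all describe letters only.

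The libraries held between 7498247 counts (RBM3KO replicate 3) and 25068137 counts (WT replicate 3), and the lowest member, Zbtb16, had 5 counts or more in every library. Rbm3 stood at 292 ± 22.0 CPM (count scaled to the TMM-normalised library size, mean ± SD, n = 3) in WT against 26.8 ± 4.63 CPM in RBM3KO, with all 3 WT libraries above all 3 RBM3KO libraries. ILC2 receptors and products were present in every library, with summed levels of 6625 to 7918 CPM in WT and 8993 to 9471 CPM in RBM3KO over 19 genes (CPM of the total count, as in the other sums). Of the T cell markers, Cd3e stood at 22.2 ± 9.23 and 20.7 ± 7.82 CPM, and the summed level over 10 genes ranged from 519 to 645 CPM in WT and from 573 to 749 CPM in RBM3KO. Lat, Cd3g and Cd247 had the highest means of this list, and Cd3e lay far below Lat and Cd3g. Cd3g averaged 177 ± 28.4 CPM (WT) against 243 ± 75.0 CPM (RBM3KO), with overlap. Log2 fold changes (RBM3KO minus WT) were 0.30 for Lat, 0.45 for Cd3g, -0.016 for Cd247 and -0.098 for Cd3e. Of the 8 T cell markers tested, 3 had estimates above 0 and 5 below 0. Of 27 proliferation genes 16 fell and 11 did not pass, beside 0.993% of all tested genes called lower by edgeR. All 27 log2 fold changes (RBM3KO minus WT) were below 0. Of the 27, 25 had an unadjusted p under 0.05 and 24 were separated lower, beside 6.86% and 10.5% of all tested genes. Their summed level was 4642 to 5597 CPM in WT against 2873 to 3060 CPM in RBM3KO. Without WT replicate 1, 2 or 3 the number called lower was 3, 10 and 10 in that order. Without RBM3KO replicate 1, 2 or 3 it was 9, 8 and 12. Malat1, a nuclear RNA, stood at 256 ± 47.9 and 500.3 ± 208 CPM. Of 9 NK and ILC1 markers 1 fell, Tyrobp, from 49.8 ± 7.84 to 19.5 ± 3.90 CPM (edgeR adjusted p = 0.0292), a call that ended without WT replicate 1, 2 or 3 or RBM3KO replicate 2 or 3. Their summed level spanned 194 to 487 CPM in WT and 154 to 209 CPM in RBM3KO. At an unadjusted p under 0.05, 5 of these 9 markers were lower and 0 higher, beside 6.86% of all tested genes lower. Their log2 fold changes were below 0 for 8 and above 0 for 1, with a median of -1.06. None of the tested B and plasma cell (5), ILC3 (6), myeloid (8), T cell (8), granulocyte and mast cell (2) or lung structural (4) markers passed by edgeR. At an unadjusted p under 0.05 there were 3 ILC3 markers (Il22, Il17a and Il17f, whose libraries were separated on the higher side), 2 B and plasma cell markers (Cd79a and Igj, lower), 1 T cell marker (Lat, higher) and 0 in the other 3 lists. Among all tested genes, 5.46% were higher and 6.86% lower at that mark. Of the markers just named, DESeq2 called Il17a, Cd79a and Igj, and limma-voom called none. The B and plasma cell sum was 61.2 to 89.0 CPM in WT and 38.3 to 42.3 CPM in RBM3KO, the ILC3 sum 74.5 to 108 and 104 to 160.2 CPM, and the structural sum 58.6 to 144 and 75.4 to 319.5 CPM. Cd79b, Lyz2 and Pecam1 were counted in every library, whereas Igj was at 0 counts in all 3 RBM3KO libraries. The part of proliferation genes, other cells and Malat1 in the results that follow was not tested.

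None of the 10 transcription factors was called between the genotypes by edgeR's quasi-likelihood test (adjusted p under 0.05 over all genes), where 1.24% of all tested genes were called, 0.246% higher and 0.993% lower. The highest positive estimate was that of Rora, a log2 fold change (RBM3KO minus WT) of 0.61, and the lowest that of Gfi1, -1.40. Estimates were above 0 for 7 members and below 0 for 3, with a median of 0.16 beside 0.0087 over all tested genes. With 1 library left out, 6 to 8 members were above 0 and the median lay between 0.12 and 0.26, the latter without WT replicate 3. At an unadjusted p under 0.05 there were 4 members, namely Rora, Id2 and Ets1 on the higher side and Gfi1 on the lower, and 12.3% of all tested genes passed that mark, 5.46% higher and 6.86% lower. The 3 WT and 3 RBM3KO libraries did not overlap for 6 members (Rora, Id2, Ets1 and Tox higher, Gfi1 and Tcf7 lower), and 18.9% of all tested genes were separated in this way, 8.43% higher and 10.5% lower. DESeq2 called 2 members, Gfi1 and Ets1, and 3.63% of the genes to which it gave an adjusted p. With limma-voom 0 members and 1.63% of all tested genes were called. The plot of levels by library gives the 6 values of each gene.

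**Figure D1:**
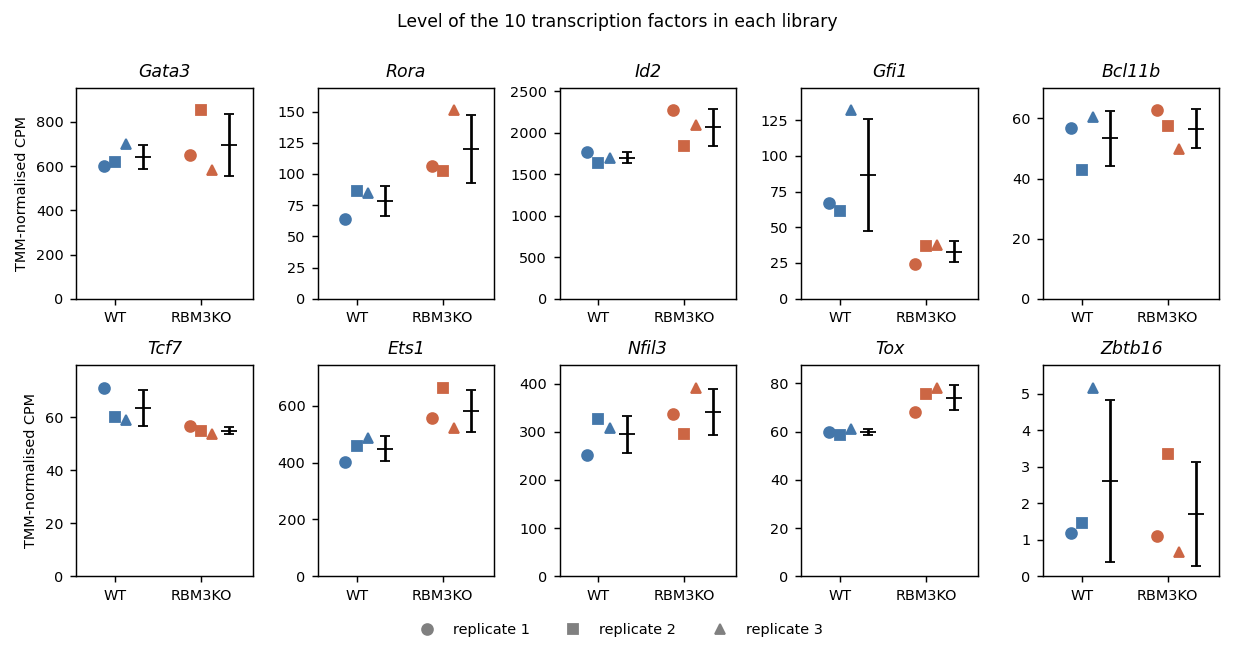
TMM-normalised CPM (vertical axes, from 0) of each of the 10 genes in the 3 WT (blue) and 3 RBM3KO (orange) libraries, with marker shapes for the replicate numbers and black bars for mean ± SD. Rora, Id2, Ets1 and Tox sit higher in all 3 RBM3KO libraries, Gfi1 and Tcf7 lower, and WT replicate 3 stands above the other libraries for Gfi1 and Zbtb16.

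Gfi1 encodes a zinc finger repressor that ILC2s need to hold their identity, and it had the largest difference of the list. Its levels were 66.7, 61.4 and 132 CPM in WT replicates 1, 2 and 3 and 24.3, 36.9 and 37.6 CPM in RBM3KO replicates 1, 2 and 3. All 3 WT libraries lay above all 3 RBM3KO libraries, with WT replicate 3 far above the other 2 WT libraries. The means were 86.7 ± 39.3 and 32.9 ± 7.45 CPM, a ratio of 2.63 between WT and RBM3KO, and edgeR estimated a log2 fold change of -1.40 ± 0.30 (SE), with a 95% interval of -2.07 to -0.73 and an adjusted p of 0.0571. It did not pass the threshold, and it passed under 5 of 15 alternatives (among them DESeq2, adjusted p = 0.000458), over which the adjusted p ran from 0.000458 to 0.158. Without WT replicate 3 the estimate was -0.96, with an edgeR adjusted p of 0.154, the value nearest to 0 among the 15. In the same libraries the summed myeloid markers stood at 35.5, 82.7 and 183 CPM in WT and 26.5, 73.6 and 80.7 CPM in RBM3KO, also highest in WT replicate 3. Lyz2 alone stood at 14.9, 44.4 and 135 CPM (TMM-normalised) in WT and 3.07, 37.6 and 61.4 CPM in RBM3KO. Of the next markers by mean, Cd68 was highest in WT replicate 3 (11.7 CPM) and Zbtb46 in RBM3KO replicate 1 (23.4 CPM). The summed granulocyte and mast cell markers stood at 24.2, 20.2 and 22.1 CPM in WT and 12.1, 16.8 and 17.3 CPM in RBM3KO. The part of myeloid, granulocyte and mast cells in the Gfi1 result was not tested.

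Gata3 encodes the master regulator of ILC2s and did not separate by genotype. Its levels were 599, 620 and 701 CPM in WT and 648, 853 and 584 CPM in RBM3KO. The RBM3KO libraries held both the highest and the lowest value of the 6, and the groups overlapped. On the log2 scale the difference was 0.12 ± 0.13 (SE), its 95% interval ran from -0.18 to 0.42, and edgeR's adjusted p was 0.830. Without RBM3KO replicate 2 the sign turned, at -0.053.

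Rora encodes the nuclear receptor RORα, which ILC2 development requires. It stood at 64.2, 86.3 and 84.6 CPM in WT and 106, 102 and 151 CPM in RBM3KO. All RBM3KO libraries were above all WT libraries, with RBM3KO replicate 3 the highest. This log2 difference of 0.61 ± 0.18 (SE), with a 95% interval of 0.20 to 1.01, had an adjusted p of 0.179 by edgeR and did not pass. It ranged from 0.41 without RBM3KO replicate 3 to 0.71 without RBM3KO replicate 2. RBM3KO replicate 3 was also the shallowest library and had the highest sum of lung structural markers, 319.5 CPM. Sftpc stood at 248 CPM (TMM-normalised) there and at 75.7 CPM in WT replicate 2, the next highest. The part of depth and of structural cells in the Rora result was not tested.

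Bcl11b encodes a zinc finger factor that restrains the ILC3 programme in ILC2s. Its levels, 56.8, 42.9 and 60.3 CPM in WT and 62.7, 57.4 and 49.7 CPM in RBM3KO, overlapped. Its estimate was 0.088 ± 0.19 (log2, SE), with a 95% interval from -0.34 to 0.52 and an edgeR adjusted p of 0.931, and it turned to -0.048 without WT replicate 2. Bcl11b and Gata3 were thus the members whose estimates lay nearest to 0.

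**Figure D2:**
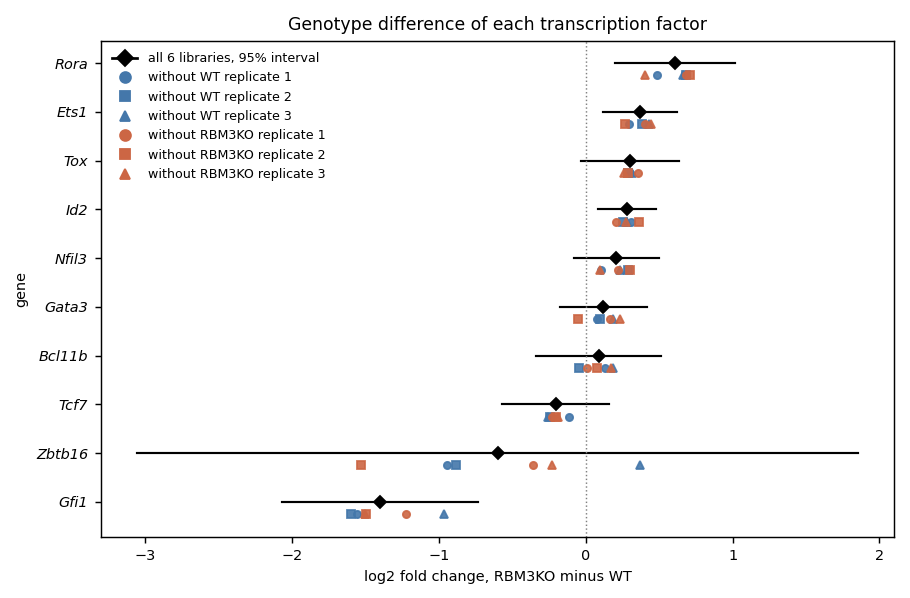
Log2 fold change, RBM3KO minus WT (horizontal axis), of each gene with all 6 libraries (black diamonds, with 95% intervals as lines) and with 1 library left out (coloured markers below). Gfi1 moves from -1.40 to -0.96 without WT replicate 3, and Zbtb16 changes sign without that library.

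Id2 encodes the inhibitor of E proteins that all ILCs need, and it had the highest counts of the 10. It stood at 1765, 1636 and 1699 CPM in WT and 2274, 1836 and 2090.2 CPM in RBM3KO. Every RBM3KO library was above every WT library, and the WT libraries lay within a narrow band (a coefficient of variation of 3.78%, against 10.6% in RBM3KO). The estimate, 0.28 ± 0.090 (log2, SE) with a 95% interval of 0.083 to 0.48, did not pass edgeR's test (adjusted p = 0.199).

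Ets1 encodes an ETS factor of lymphoid progenitors. Its levels were 401, 458 and 487 CPM in WT and 556, 663 and 521 CPM in RBM3KO. Every RBM3KO library was above every WT library, with RBM3KO replicate 2 the highest. In edgeR's fit, the difference was 0.37 ± 0.11 (log2, SE) with a 95% interval of 0.12 to 0.62, and the adjusted p of 0.185 did not pass, whereas that of DESeq2 was 0.0440. Over the 15 alternatives the adjusted p of Ets1 ran from 0.0440 to 0.529.

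Tox encodes an HMG box factor of early ILC progenitors. It stood at 59.8, 58.8 and 61.1 CPM in WT and 68.2, 75.5 and 78.2 CPM in RBM3KO. The groups did not overlap, and the coefficient of variation in WT, 1.93%, was the lowest of the 10 genes in that genotype. The difference, 0.30 ± 0.15 (log2, SE), had a 95% interval of -0.028 to 0.64 and an edgeR adjusted p of 0.453.

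Tcf7 encodes TCF-1, a target and partner of Notch signalling. It stood at 71.2, 60.3 and 58.9 CPM in WT and 56.6, 54.9 and 53.6 CPM in RBM3KO, lower in each RBM3KO library than in each WT library. WT replicate 1 was the highest, and WT replicate 3 and RBM3KO replicate 1 were close. Its estimate of -0.21 ± 0.16 (log2, SE) lay within a 95% interval of -0.57 to 0.16, and edgeR's adjusted p was 0.713. Without WT replicate 1 it was -0.12.

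Nfil3 encodes a basic leucine zipper factor of the earliest ILC step. Its levels were 252, 326 and 307 CPM in WT and 337, 296 and 392 CPM in RBM3KO. The groups overlapped. A log2 difference of 0.21 ± 0.13 (SE), with a 95% interval of -0.080 to 0.50, had an edgeR adjusted p of 0.596. Leaving out WT replicate 1 gave 0.11, and leaving out RBM3KO replicate 3 gave 0.099.

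Zbtb16, the PLZF gene, had 16, 25 and 132 counts in WT and 17, 56 and 5 counts in RBM3KO. These correspond to 1.18, 1.47 and 5.17 CPM and to 1.11, 3.34 and 0.673 CPM, so WT replicate 3 was the highest and RBM3KO replicate 3 the lowest, with the groups overlapping. The estimate of -0.60 ± 1.11 (log2, SE), with a 95% interval of -3.06 to 1.86 and an edgeR adjusted p of 0.912, was 0.37 without WT replicate 3. It was -1.53 without RBM3KO replicate 2, and no difference was detected.

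Levels of different genes were set side by side per kilobase of exon (union of the exons of GENCODE's basic transcripts). On that scale Id2 led, at 697 ± 26.4 CPM per kb in WT and 848 ± 90.2 CPM per kb in RBM3KO, which put it 99th of 11249 genes ranked by their mean over the 6 libraries. Gata3 followed at 199 ± 16.8 and 216 ± 43.8 CPM per kb (444th), then Nfil3 at 146 ± 19.1 and 168 ± 23.7 and Ets1 at 88.3 ± 8.59 and 114 ± 14.6 CPM per kb. Next by mean over the 6 libraries came Tcf7 (24.2 ± 2.55 and 20.96 ± 0.569 CPM per kb), Gfi1 (27.9 ± 12.7 and 10.6 ± 2.40) and Tox (15.1 ± 0.292 and 18.7 ± 1.30). Rora stood at 6.97 ± 1.10 and 10.6 ± 2.43 CPM per kb and Bcl11b at 6.57 ± 1.13 and 6.98 ± 0.811 CPM per kb. The place of Gfi1 above Rora did not hold in RBM3KO. Gfi1 lay below Rora in RBM3KO replicates 1 (7.84 against 9.43 CPM per kb) and 3 (12.1 against 13.4). Zbtb16 was last, at 0.493 ± 0.421 and 0.323 ± 0.271 CPM per kb, 10474th of the 11249 genes. The ranges over the 6 libraries did not overlap between Id2 and Gata3, Ets1 and Tcf7, Tox and Rora, or Bcl11b and Zbtb16. They overlapped between the other neighbours. Within a library, Nfil3 was above Ets1 in 6 of 6, and Gata3 above Nfil3, Tcf7 above Gfi1 and Rora above Bcl11b in 5 of 6. Gfi1 was above Tox in 3 of 6, namely the WT libraries, and below it in each RBM3KO library. With the length of the transcript of longest coding sequence in place of the union of exons, the order was unchanged, while the mean level of Id2 over all libraries moved from 773 to 1966 CPM per kb, since its transcript there is 958 instead of 2438 bases long.

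**Figure D3:**
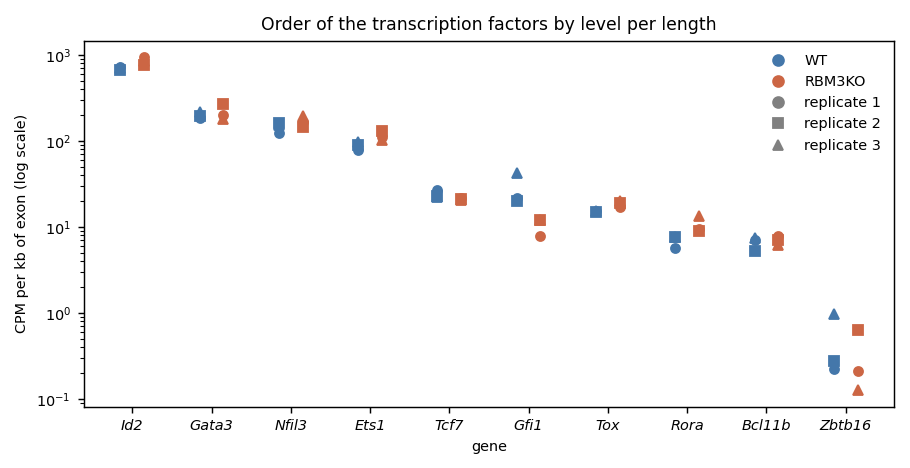
Level per kilobase of exon (CPM per kb, vertical log axis) of the 10 genes in order of their mean, for WT (blue) and RBM3KO (orange) libraries, with marker shapes for replicate numbers. Id2 is highest in each library and Zbtb16 lowest. The points of Gfi1 spread across those of Tcf7 and Tox and, in RBM3KO, reach those of Rora.

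Ratios of counts within a library do not depend on the scaling between libraries. Id2 was set against the summed E protein genes Tcf3, Tcf12 and Tcf4, whose products bind E-boxes. The ratio of counts was 9.89, 9.32 and 8.55 in WT and 12.96, 11.6 and 12.1 in RBM3KO, and depends on gene length, so only its difference between genotypes is read. Every RBM3KO library lay above every WT library. The log2 ratio was higher by 0.40 in RBM3KO (3.21 ± 0.11 against 3.61 ± 0.08, n = 3 each, two-sided exact permutation p = 0.1, the smallest that 3 against 3 allow). Of the E protein genes, Tcf3 had 156 ± 13.9 CPM (WT) and 135 ± 11.7 CPM (RBM3KO), and Tcf12 26.1 ± 5.55 and 31.7 ± 3.96 CPM. Against Tcf12 alone the difference was -0.019 (exact permutation p = 1) and against Tcf3 alone 0.48 (exact permutation p = 0.1).

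The ratio of Gfi1 to Gata3 counts was 0.111, 0.0991 and 0.188 in WT and 0.0375, 0.0432 and 0.0643 in RBM3KO. The log2 ratio was -2.97 ± 0.49 in WT and -4.41 ± 0.40 in RBM3KO, a difference of -1.44 with no overlap (two-sided exact permutation p = 0.1, n = 3 each). Without WT replicate 3 it was -1.16. The ratio of Rora to Gata3 counts, 0.107, 0.139 and 0.121 in WT and 0.163, 0.119 and 0.259 in RBM3KO, overlapped between the genotypes. Its log2 difference of 0.50 had a two-sided exact permutation p = 0.3 (n = 3 each) and was 0.20 without RBM3KO replicate 3. These 3 ratios were 1 family, chosen with earlier results of these data known, and none could reach 0.05 in this design.

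**Figure D4:**
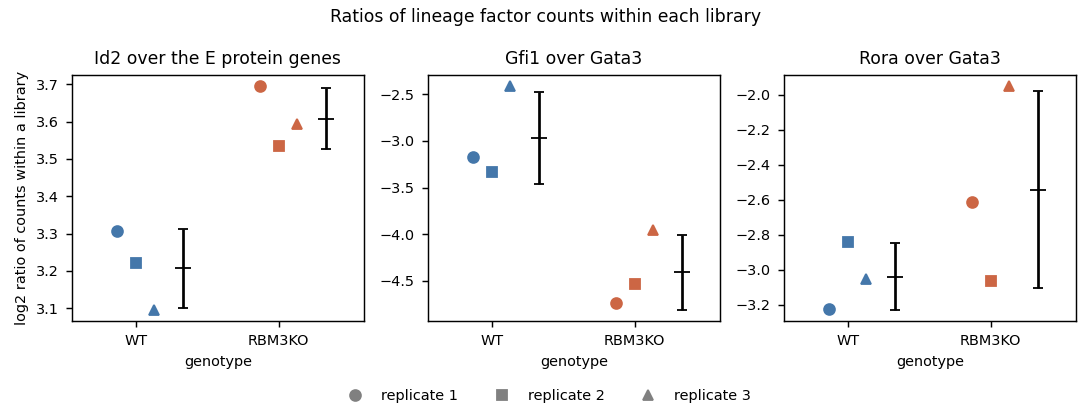
Log2 ratio of counts within each library (vertical axes, not starting at 0) for Id2 over the E protein genes, Gfi1 over Gata3 and Rora over Gata3, in WT (blue) and RBM3KO (orange), with black bars for mean ± SD. The first 2 ratios separate the genotypes, with differences of 0.40 and -1.44, and the third overlaps.

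Genes that work with these factors were taken from lists of partners and relatives. In the 5 lists of E and ID proteins, Notch, GATA3 and RUNX partners, family relatives and the GFI1 corepressor, DESeq2 and limma-voom called 0 genes as well. Of 5 tested genes of the E protein and ID family, 0 passed in either direction by edgeR (0 at an unadjusted p under 0.05), with a median log2 fold change of -0.20. Id1 and Id3, the other inhibitors tested, stood at 3.10 ± 2.81 and 3.19 ± 0.530 CPM in WT. In RBM3KO they stood at 1.81 ± 1.43 and 4.13 ± 3.88 CPM, and in both genotypes far below Id2 in counts. Of 10 Notch and TCF-1 partners, 0 passed (median 0.13, 1 at an unadjusted p under 0.05). Rbpj, the DNA-binding partner of Notch, stood at 267 ± 24.3 and 308 ± 35.3 CPM, and Tle3, a corepressor, at 140 ± 9.97 and 183 ± 14.6 CPM (edgeR adjusted p = 0.165). Of 10 GATA3 and RUNX partners, 0 passed (median 0.14, 1 at an unadjusted p under 0.05), with Cbfb, the common RUNX subunit, at 125 ± 23.7 and 106 ± 37.2 CPM and Runx3 at 78.6 ± 11.5 and 97.8 ± 14.9 CPM.

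Of 15 tested family relatives of the members, 0 passed (median 0.16, 2 at an unadjusted p under 0.05). Fli1, an ETS relative of Ets1, stood at 132 ± 34.0 and 135 ± 25.5 CPM. Of 9 genes of the corepressor complex that GFI1 recruits, 0 passed, with estimates above 0 for 3 and below 0 for 6 (median -0.11). At an unadjusted p under 0.05 there were 2, Rcor3 (log2 fold change of 1.11) and Hdac2 (-0.33). Libraries were separated higher for 1 of the 9 and lower for 2, beside 8.43% and 10.5% of all tested genes. The demethylase gene of the complex, Kdm1a, had 26.3, 32.4 and 30.5 CPM in WT and 3.65, 16.1 and 23.1 CPM in RBM3KO. The groups did not overlap, with a wide spread in RBM3KO. Its difference of -1.07 ± 0.51 (log2, SE) had an edgeR p of 0.060 unadjusted and 0.429 adjusted. Hdac1, the most abundant of that complex by counts, stood at 373 ± 37.0 and 344 ± 33.3 CPM.

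Of 16 tested regulators of other lymphoid programmes, 2 fell and 14 did not pass (median 0.18, beside 0.993% of all tested genes called lower), and DESeq2 called Ikzf3 higher besides. Myb, a progenitor factor linked to proliferation, fell from 28.2, 27.6 and 25.7 CPM to 8.74, 9.97 and 10.6 CPM, a difference of -1.48 ± 0.28 (log2, SE; edgeR adjusted p = 0.0386). Klf2, a quiescence and egress factor, fell from 51.1, 61.4 and 64.3 CPM to 27.5, 21.02 and 24.1 CPM, a difference of -1.28 ± 0.21 (log2, SE; edgeR adjusted p = 0.0172). Leaving out any 1 of the 6 libraries ended the Myb call (edgeR adjusted p from 0.0682 to 0.185), and leaving out WT replicate 1, 2 or 3 or RBM3KO replicate 2 ended that of Klf2 (0.0648 to 0.0853). In both genes the WT and RBM3KO libraries did not overlap. Of 19 ILC2 receptors and products, 0 passed, while 18 had estimates above 0 (median 0.41) and 11 had an unadjusted p under 0.05 on the higher side, where 5.46% of all tested genes stood. DESeq2 called 7 of the 19 higher (Arg1, Icos, Il13, Il1rl1, Il4, Il5 and Il7r) and limma-voom 1 (Il5). Il1rl1, the IL-33 receptor gene, had 363 ± 106 and 553 ± 23.0 CPM, and Arg1, encoding arginase, 2197 ± 117 and 2922 ± 412 CPM. The strip plot by gene list sets these lists beside the 10 lineage factors.

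**Figure D5:**
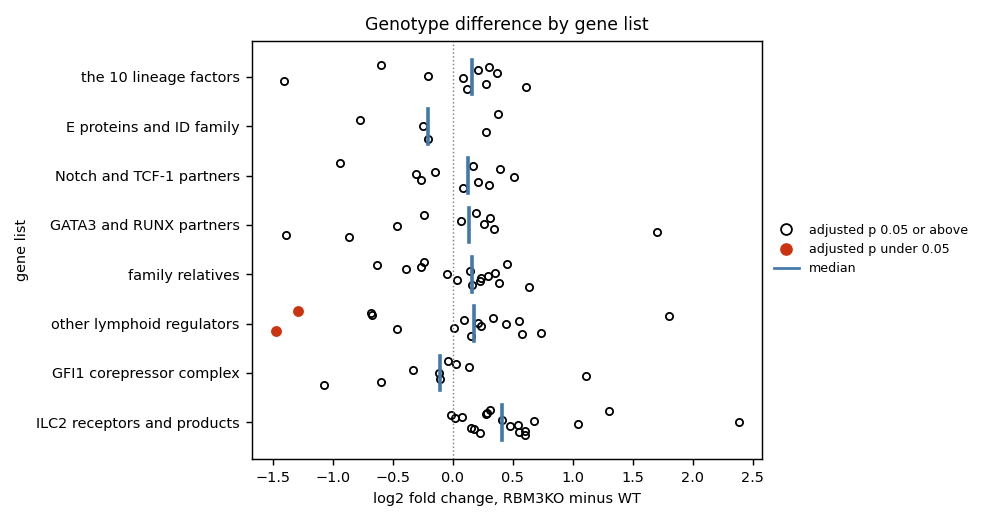
Log2 fold change, RBM3KO minus WT (horizontal axis), of each tested gene by list, with open circles for genes that did not pass the test, filled red circles for the 2 that did (Myb and Klf2) and blue lines for list medians. Gfi1, at -1.40, is the leftmost of the 10 lineage factors, and 18 of 19 ILC2 receptors and products lie above 0.

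Among 7607 other genes with a mean of at least 10 CPM, those whose log2 CPM followed a member most closely over the 6 libraries were named as a description. For Gfi1 they were Nde1, Gna11 and Gclm (Pearson's r of 0.992, 0.991 and 0.991), for Id2 Smarcal1, Pgm2l1 and Erc1 (0.987, 0.987 and 0.984), for Rora Bbx, Kdm5b and Dtx3 (0.984, 0.982 and 0.981) and for Gata3 Ap1g1, Atp6v0d1 and Map3k1 (0.972, 0.960 and 0.958). The 6 points share library depth and genotype, and the genes were picked as the highest of all compared, so these values carry no test.

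The genes lie at separate loci (GENCODE M21, mm10, 1-based), among them Gata3 at chr2:9857078-9890034, Gfi1 at chr5:107716657-107726036, Id2 at chr12:25093799-25097140 and Rora at chr9:68653786-69388246. Exons of Gata3, Rora, Gfi1 and Tox share 155, 82, 19 and 260 bases with an annotated gene on the opposite strand. The library method in its standard form keeps no strand information, so reads over those bases cannot be assigned to a strand.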

How the data were processed

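The authors deposited 1 table of raw counts per gene symbol for 3 WT and 3 RBM3KO libraries, 1 column per library, and 0 columns of other samples. Tools named in the submitters' processing notes are STAR 2.6.1c, Bowtie 1.0.0 and featureCounts 1.6.5, with the build mm10. The sources used here do not give the annotation, strand setting or read filters. Per the labels' protocols, polyA RNA went through Smart-seq2 and Nextera XT, which in its standard form carries no molecular identifiers, so PCR copies are counted. Total counts were 13339633, 16747682 and 25068137 in WT and 15843924, 16936670 and 7498247 in RBM3KO. No libraries were identical, and the closest pair differed with a chi-square of 21.5 per degree of freedom.

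Genes were filtered with filterByExpr, scaled by TMM and tested by quasi-likelihood in edgeR 4.0.16 (R 4.3.3), with robust fitting, no covariate, Benjamini-Hochberg adjustment over all 11382 tested genes and a threshold of 0.05. Rbm3 was left out of the numbers of genes called. SE is the log2 fold change divided by the square root of F. DESeq2 1.42.0 and limma 3.58.1 served as alternatives; the other length model and the alternatives for Myb, Klf2, Tyrobp and proliferation genes were added after seeing the data. The code was tested on simulated data. Symbols were matched to GENCODE M21 (90.2% of genes by symbol, 8.30% by an older symbol). The members, lists, tests and motifs were chosen with earlier results of these data known. Named genes were the 10 members and Rbm3, and from each list those past the threshold or up to 3 of highest mean. The 3 genes most alike in pattern to each of 4 members were named as well. Malat1, Kdm1a, Rcor3, Id1, Il1rl1, Cd3e, Igj, Il22, Il17f and Ikzf3 were named after their values were seen. So were, beside Arg1, the ILC2 genes called by DESeq2.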

Additional observations from a re-analysis of the deposited data

How the results depend on the processing

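Over 15 alternatives the sign of the difference held for 7 of the 10 members. It reversed for Gata3 (-0.053 without RBM3KO replicate 2), Bcl11b (-0.048 without WT replicate 2) and Zbtb16 (0.37 without WT replicate 3). Leaving out 1 library gave ranges of -0.053 to 0.23, -0.048 to 0.18 and -1.53 to 0.37 for these 3. Zbtb16 was not tested under the stricter filter (10 CPM in at least 3 libraries). For Gfi1, with log2 fold changes from -1.60 to -0.96, the adjusted p was 0.0241 unfiltered, 0.0209 under the stricter filter, 0.000458 with DESeq2, 0.0322 with the replicate block and 0.0392 with libraries thinned to the shallowest, and 0.0510 to 0.158 under the other 10. The members called were thus 1 unfiltered, 1 with the stricter filter, 2 with DESeq2, 1 with the replicate block, 1 after thinning and 0 under the others, including all 6 that left out a library. The cause was not tested. The number of genes tested was 14416 unfiltered, 7699 under the stricter filter and 11382 in the main fit. In the same order, the unadjusted edgeR p of Gfi1 was 0.000228, 0.000356 and 0.000763, so that p moved with the filter too.

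Over all genes, DESeq2 called 413 (153 higher, 260 lower) against 141 (28 higher, 113 lower). The higher calls numbered 48 with no filter, 59 with the stricter filter, 16 by total count only and 52 with limma-voom. Leaving out 1 library gave 11 to 98 calls (1 to 18 higher, 10 to 84 lower), all from fewer samples. Deviations of same-numbered libraries were weakly correlated (r of 0.056, 0.057 and 0.0053), against -0.069 to 0.021 between libraries of different number. The values for replicates 1 and 2 lay above all of the latter but were small, and the numbers were not taken as pairs. With the replicate block 148 genes were called and the Myb call ended (edgeR adjusted p = 0.0601). For the ratios, the block was an exact sign-flip test on the 3 differences between same-numbered libraries. Its two-sided p was 0.25 for Id2 over the E protein genes, 0.25 for Gfi1 over Gata3 and 0.5 for Rora over Gata3. The smallest p that 3 differences allow is 0.25, so these values cannot be set against the 0.1 above. Leaving out 1 library moved the log2 ratio difference within 0.34 to 0.45 for Id2 over the E protein genes, -1.66 to -1.16 for Gfi1 over Gata3 and 0.20 to 0.76 for Rora over Gata3. With Tcf12 alone the Id2 ratio reversed, to -0.019. Zbtb16 had the fewest counts (5 to 132) and the widest SE, 1.11, and 1.06 after thinning.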
